A study of Mus musculus with 18 samples.

Results

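The transcripts of 10 contractile cytoskeleton genes, Acta2, Tagln, Cnn1, Cnn2, Myl9, Tpm1, Tpm2, Actg2, Cald1 and Srf, were followed in mouse embryonic stem cells (mESCs) and in embryoid bodies (EBs) that either carried or lacked IκBα, the inhibitor of NF-κB encoded by Nfkbia. These 10 were taken by symbol from the 55487 genes of the count table. The set was chosen by the low levels of Acta2 and Tagln in IκBα-KO mESCs, and the other members were added as the rest of the family, so all differences between KO and WT mESCs are a description. No p-value is given for them, and where the calls of the fit across all genes are counted in that contrast, nothing is drawn from them. All 18 libraries came from the ES-E14TG2a line. At each of the 3 stages, namely mESCs kept in serum with leukemia inhibitory factor (LIF) and EBs sampled at 48 or 96 hr, the labels list 3 IκBα-WT libraries (IkappBalpha+/+) and 3 IκBα-KO libraries (IkappBalpha-/-). The KO lines were single-cell clones edited with CRISPR-Cas9 at the first exon of Nfkbia, and the WT lines were clones that had received scrambled guides. EBs were aggregates grown in suspension without LIF. The mESC columns of the table carried the genotype, whereas the EB columns carried a clone code (D4, E14, E2, E3, H7 or H9) and the time. The genotype behind each code was not given in the sources used here and was not inferred from expression. KO and WT were therefore compared in mESCs only, whether the mESC difference persisted in KO EBs could not be answered, and the EBs of a stage, 3 WT and 3 KO, were treated as 1 group of 6.

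Contractile force in smooth muscle and in many non-muscle cells comes from myosin sliding along actin filaments. Acta2 and Actg2 encode the smooth muscle actins, whereas Tpm1 and Tpm2 encode tropomyosins that lie along the filament. Tagln (transgelin), Cnn1 and Cnn2 (calponins) and Cald1 (caldesmon) bind actin, and Myl9 encodes a regulatory light chain of myosin. Srf encodes the serum response factor, which binds a short DNA element known as the CArG box and, with cofactors of the myocardin family that respond to actin polymerisation, is known to activate many of these genes. Acta2, Tagln and Cnn1 are widely used as markers of smooth muscle and myofibroblasts.

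Promoters are shown for the 3 members in which an exact match to the CArG box consensus was found. The element read by Srf can thus be seen beside the values. The 250 bases before the start are from RefSeq on GRCm38.p6 and run 5′ to 3′ on the strand of the gene, with each CArG box in capitals.
Cnn2 (chr10:79988350-79988599, plus strand): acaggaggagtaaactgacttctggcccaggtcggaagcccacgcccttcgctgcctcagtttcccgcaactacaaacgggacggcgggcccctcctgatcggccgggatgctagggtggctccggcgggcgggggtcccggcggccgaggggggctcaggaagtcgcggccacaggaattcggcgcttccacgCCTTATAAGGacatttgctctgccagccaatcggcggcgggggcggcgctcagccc
Myl9 (chr2:156775214-156775463, plus strand): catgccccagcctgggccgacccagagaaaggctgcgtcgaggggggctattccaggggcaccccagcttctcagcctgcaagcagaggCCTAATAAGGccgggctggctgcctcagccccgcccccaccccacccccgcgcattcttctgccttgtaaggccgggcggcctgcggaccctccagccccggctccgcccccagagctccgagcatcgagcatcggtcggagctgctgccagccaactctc
Srf (chr17:46556163-46556412, minus strand): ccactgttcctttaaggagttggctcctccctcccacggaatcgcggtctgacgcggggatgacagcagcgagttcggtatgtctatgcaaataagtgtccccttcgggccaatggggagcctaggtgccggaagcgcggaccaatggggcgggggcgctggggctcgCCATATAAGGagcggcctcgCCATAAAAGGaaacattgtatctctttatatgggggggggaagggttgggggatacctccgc
Windows of 300 bases, which run on past the start, were matched for 8 of the 10 members (not for Tagln and Actg2), and 3 of the 8 held at least 1 CArG box, searched by its consensus, which reads the same on both strands. Over all 27025 genes with a window the share was 1.81%. The box of Cnn2 began 56 bases before the start and that of Myl9 161 bases before it. Srf had 2 boxes, at 82 and 62 bases before its start, and 2 or more were found in 5 of the 27025 genes. Only exact matches were sought, so sites with a mismatch, such as ccctatatgg and ccttgtttgg in the window of Acta2, were not counted. A match is a description of the letters only. The same holds for the lack of an exact match in the windows of Acta2, Cnn1, Tpm1, Tpm2 and Cald1.

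Libraries held between 28287582 and 40904247 counted reads, with 29423089 to 31091857 in WT and 34107070 to 40904247 in KO mESCs. Nfkbia, the targeted gene, had 34.2, 35.1 and 25.3 CPM (counts scaled to library size) in WT clones 1 to 3 and 10.2, 9.44 and 10.1 CPM in KO clones 1 to 3, without overlap between the genotypes (log2 fold change -1.67 ± 0.14, where ± is the standard error throughout). The 6 defining markers of pluripotent cells were detected in every group, with a summed level of 3000 to 3290 CPM in WT and 3300 to 3790 CPM in KO mESCs. KO clone 2 stood apart, with a chi-square per degree of freedom against the other KO clones of 48.4 and 54.9, compared with 7.71 between KO clones 1 and 3 and 5.04 to 10.5 among WT clones. Differentially expressed genes (DEGs) had an absolute log2 fold change over 1 and, by edgeR with adjustment over all genes, an adjusted p under 0.05. Because whole cultures were sequenced, fewer expressing cells and less RNA per cell cannot be told apart.

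In mESCs, Acta2, Tagln and Cnn1 were far lower in the KO clones, Cnn2, Tpm1 and Tpm2 were lower by less than 2-fold, and Cald1, Srf and Myl9 differed little or overlapped. Acta2 (ENSMUSG00000035783, chromosome 19, 34241090 to 34255590, GRCm38) had 8.91, 4.23 and 11.7 CPM in WT clones 1 to 3 and 0.352, 0.294 and 0.654 CPM in KO clones 1 to 3. The KO values rested on 12, 12 and 24 counts against 129 to 353 in WT, and the groups did not overlap. The log2 fold change was -4.25 ± 0.46, a 19.0-fold lower level.

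Tagln (ENSMUSG00000032085, chromosome 9, 45929619 to 45936058) had 28.1, 28.9 and 68.3 CPM in WT clones 1 to 3 and 3.29, 1.10 and 2.94 CPM in KO clones 1 to 3. Every KO clone was again below every WT clone, and the log2 fold change was -4.10 ± 0.48, or 17.2-fold lower. The exons of Tagln overlap those of 2 annotated genes, with 1241 bases shared with the antisense gene Gm48529. The strand setting of the counting was not given in the sources used here, so reads of both partners may not be separated. Cnn1 (ENSMUSG00000001349, chromosome 9, 22099216 to 22109630) had 3.02, 4.0 and 7.96 CPM in WT and 1.2, 1.13 and 1.01 CPM in KO clones 1 to 3. The KO clones lay close together and below all WT clones, with a log2 fold change of -2.16 ± 0.36.

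The tropomyosins and Cnn2 were shifted by less. For Tpm2 (chromosome 4, 43514711 to 43523765) the WT clones had 19.4, 22.6 and 28.1 CPM and the KO clones 13.1, 15.3 and 9.21 CPM, without overlap (log2 fold change -0.90 ± 0.20). Tpm1 (chromosome 9, 67022590 to 67049406), the member with the most reads, had 161, 154 and 229 CPM in WT and 129, 72.2 and 124 CPM in KO clones (log2 fold change -0.74 ± 0.23). Cnn2 (chromosome 10, 79988584 to 79996062) had 59.5, 55.3 and 80.8 CPM in WT and 50.2, 32 and 44.4 CPM in KO clones (log2 fold change -0.63 ± 0.19). In Tpm1 and Cnn2 the groups were separate, with KO clone 1 nearest to the WT range.

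The remaining members did not separate the genotypes. Myl9 (chromosome 2, 156775420 to 156781658) had 10.1, 7.75 and 13.8 CPM in WT and 8.42, 2.60 and 9.32 CPM in KO clones 1 to 3, so that only KO clone 2 lay below the WT range (log2 fold change -0.64 ± 0.43). Cald1 (chromosome 6, 34598500 to 34775473) ranged from 67.2 to 88.2 CPM in WT and from 62.4 to 72.1 CPM in KO clones (log2 fold change -0.18 ± 0.12). Srf itself (chromosome 17, 46548329 to 46556175) had 37.4, 41.2 and 46.3 CPM in WT and 37.9, 34.9 and 36.2 CPM in KO clones, with the highest KO clone inside the WT range (log2 fold change -0.20 ± 0.10). Actg2 (chromosome 6, 83512905 to 83536265) had at most 3 counts in any mESC library, so no fold is given.

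**Figure D1:**
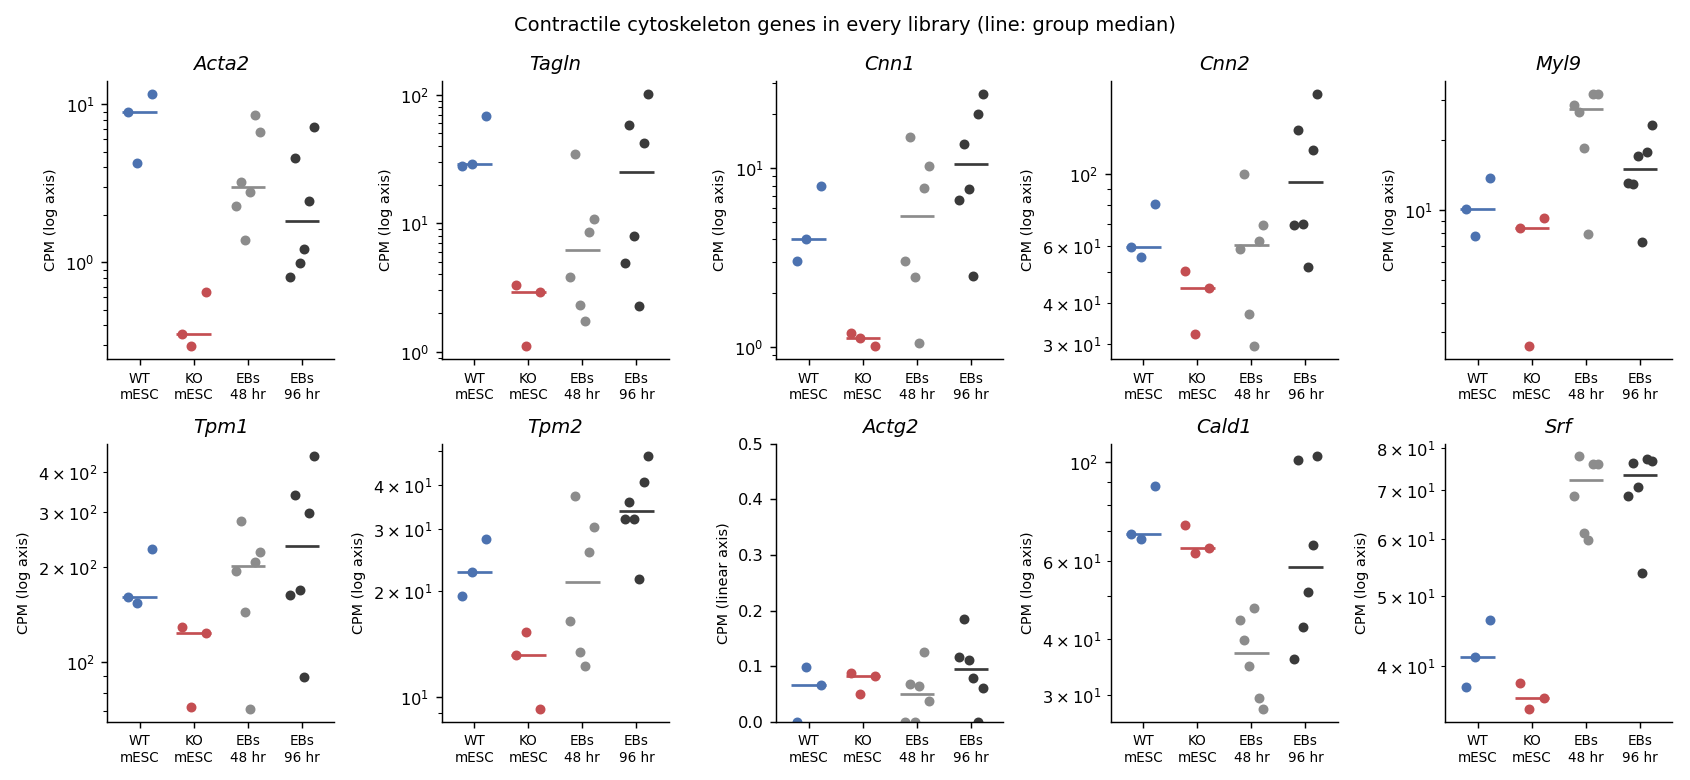
CPM of each of the 10 members in every library (vertical axis, log scale except for Actg2) in WT mESCs (n = 3), KO mESCs (n = 3) and the 48 and 96 hr EBs (n = 6 each, both genotypes in each EB group). Points are libraries and lines are group medians. Acta2 lies at 4.23 to 11.7 CPM in WT and 0.294 to 0.654 CPM in KO mESCs, whereas Srf lies at 34.9 to 46.3 CPM in mESCs and 53.9 to 78.0 CPM in EBs.

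All 10 members passed the filter of 10 counts over the 6 mESC libraries. Acta2, Tagln and Cnn1, 3 of the 10, were lower DEGs, where 0.641% of the 21843 genes tested were, and 4 of 10 were lower at an adjusted p under 0.05 alone, where 1.69% of all genes were. In 6 members (Acta2, Tagln, Cnn1, Cnn2, Tpm1 and Tpm2) every KO clone was below every WT clone, which held for 13.9% of all genes. Since the set was selected on this contrast, nothing is read from these shares. The median log2 fold change was -0.69 over the members and 0.015 over all genes. The number of members called was 3, 0 and 2 without WT clones 1, 2 and 3, and 2, 3 and 2 without KO clones 1, 2 and 3. Acta2 was called in 5 of these 6 fits, Tagln in 4 and Cnn1 in 2. Without KO clone 2 the call of Tagln was lost and Tpm2, at a log2 fold change of -1.06, was called, and the call of Tagln was also lost in all 6 libraries with no low-count filter. Without WT clone 2 none of the genes was a DEG by edgeR, with 3104 genes at an unadjusted p under 0.05, against 372 DEGs in all 6 libraries, and DESeq2 was run on all 6 libraries only (572 DEGs). The log2 fold change in these 6 fits stayed between -4.68 and -3.92 for Acta2, between -4.38 and -3.55 for Tagln and between -2.42 and -1.66 for Cnn1.

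WT clone 3 was the highest WT clone for 9 of the 9 members other than Actg2, compared with 39.9% of the 13171 genes whose mean count reached 50. The lowest WT clone was clone 1 for 4 members (Tagln, Cnn1, Tpm2 and Srf) and clone 2 for 5. KO clone 2 was the lowest KO clone for 7 of the 9 (43.0% of all genes). For Tagln, Cnn1 and Tpm1, all on chromosome 9, the other genes within 5 Mb on either side differed in KO clone 2 from the mean of the WT clones by a median of -0.33, -0.38 and -0.25 in log2 CPM, against -0.06 to 0.11 in KO clones 1 and 3. For the other 7 members this median lay between -0.03 and 0.12 in all KO clones. The part of these regions in the members' levels was not tested.

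Among close relatives of the members, the muscle actins Acta1 and Actc1 were lower in KO clones and the other 9 genes had log2 fold changes between -0.20 and 0.65. Of 11 relatives, 2 were lower DEGs and none was a higher one, and their median log2 fold change was -0.02. Acta1, the skeletal muscle actin, had 2.30, 2.00 and 5.05 CPM in WT and 0.704, 0.294 and 0.6 CPM in KO clones (log2 fold change -2.55 ± 0.46), with no overlap. Actc1, the cardiac actin, was barely detected, with 11, 10 and 13 counts in WT and 3, 0 and 0 counts in KO clones. Actb and Actg1, which encode the cytoplasmic actins of all cells, had log2 fold changes of -0.07 and 0.00 (standard errors 0.07 and 0.08). The transgelins Tagln2 and Tagln3 were at 0.65 ± 0.09 and 0.53 ± 0.15, and the calponin Cnn3 at 0.23 ± 0.06. The tropomyosins Tpm3 and Tpm4 were at -0.02 ± 0.10 and 0.37 ± 0.11, and the myosin light chains Myl12a and Myl12b at -0.02 ± 0.12 and -0.20 ± 0.16.

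**Figure D2:**
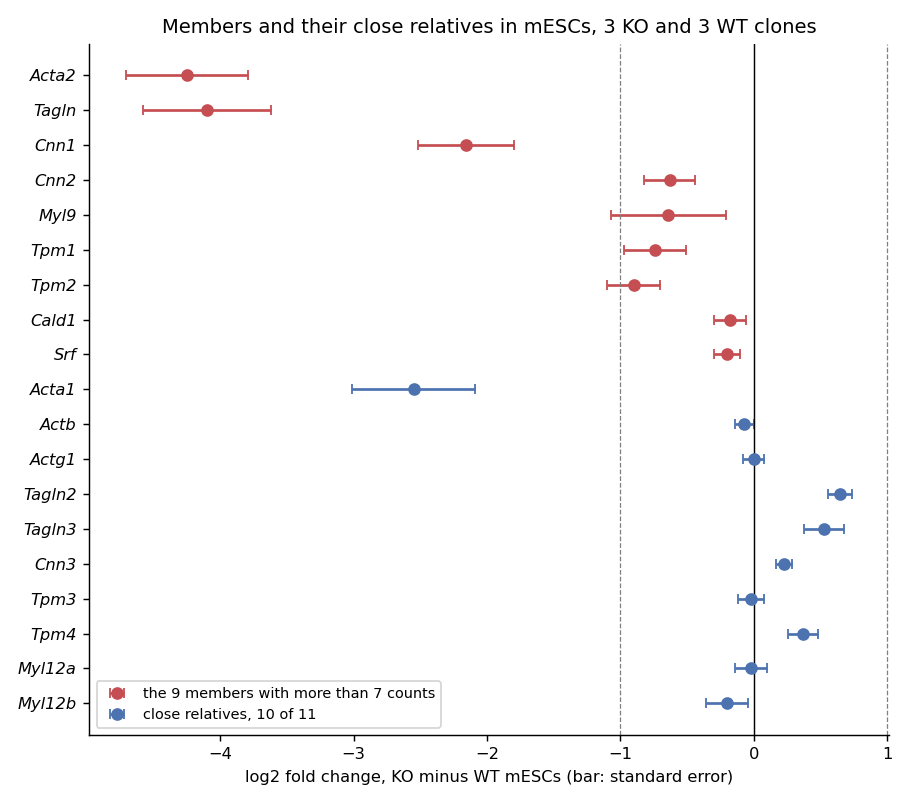
Log2 fold change of KO minus WT mESCs (horizontal axis, points, with standard errors as bars, 3 clones each) for 9 members (red) and 10 of their 11 relatives (blue). Actg2 and Actc1 are left out because of their few counts, and dashed lines mark a log2 fold change of -1 and 1. Acta2, Tagln, Cnn1 and Acta1 lie at -4.25, -4.10, -2.16 and -2.55, and Actb and Actg1 lie near 0.

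Of the 89 relatives and listed genes of the wider programme, 1 was a higher and 2 were lower DEGs between the genotypes in mESCs, where 1.7% of all genes were DEGs in either direction. Of the 15 genes listed as cofactors of Srf or steps upstream of it, only Elk3, an ETS factor that binds with Srf, was a DEG, at 3.73 to 4.54 CPM in WT and 6.84 to 13.6 CPM in KO clones (log2 fold change 1.33 ± 0.26). None of the 21 other Srf targets, 19 further actomyosin genes, 12 genes of TGF-β signalling and 11 TEAD and YAP genes was a DEG by edgeR. DESeq2 called 1 of the other Srf targets and 0 of the remaining lists, and 9, 3, 4 and 2 genes of these 4 lists had an unadjusted p under 0.05 in edgeR's test. Such a p was held by 3074 of 21339 genes without WT clone 3 and by 6528 of 21001 without KO clone 2. These were the lowest and highest counts with 1 clone left out. The share in all 6 libraries is not given, so nothing is read from the counts of the lists. At an adjusted p under 0.05 alone, 1 of these 21 targets was higher and 1 lower, 1 TGF-β gene was lower and 1 TEAD or YAP gene was higher. The median log2 fold change was -0.24 for the other Srf targets and 0.12 for the actomyosin genes.

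Markers of other cell types differed as well. The summed level of 9 markers of primitive and parietal endoderm was 187 to 234 CPM in WT and 273 to 928 CPM in KO mESCs, and that of 10 fibroblast markers was 15.9 to 17.0 and 22.9 to 29.4 CPM. For 6 genes of differentiated smooth muscle the sums were 43.2 to 46.1 and 52.2 to 56.7 CPM, although Myocd stayed under 10 counts in each mESC library. Among the fibroblast markers, Dcn, Lum, Postn and S100a4 were under 10 counts in each mESC library. Early mesoderm (6.93 to 9.69 and 8.14 to 11.5 CPM), cardiac and skeletal muscle (44.6 to 59.1 and 39.0 to 103 CPM) and neuroectoderm markers (32.6 to 58.7 and 22.1 to 41.2 CPM) overlapped between the genotypes. The sums of the endoderm, fibroblast and smooth muscle lists were higher in every KO than in every WT clone. The same held for 3292 of 21833 single genes. Among KO clones, clone 2 had the lowest Acta2 and Tagln levels. Its endoderm and fibroblast sums were also the lowest (273 and 22.9 CPM), and its smooth muscle sum was the highest (56.7 CPM). Single genes of a list could differ from its sum. Lmod1, of the smooth muscle list, was at 0.821 to 0.99 CPM in WT and 0.572 to 0.646 CPM in KO mESCs. Col3a1, a fibroblast marker, was under 10 counts in each KO but not in each WT library. The part of these lists in the result was not tested.

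In EBs at 48 hr, Myl9 and Srf were higher than in mESCs and Cald1 was lower, whereas the genes lowest in KO mESCs spread widely. Stage differences were tested over all 18 libraries in 3 groups of 6. The mESC group holds the libraries on which the set was chosen, with KO and WT clones together. Myl9 had 2.60 to 13.8 CPM in mESCs and a lowest, median and highest level of 7.95, 27.5 and 31.8 CPM in EBs at 48 hr. Only clone E3, at 7.95 CPM, lay inside the mESC range, and the log2 fold change was 1.48 ± 0.36 (edgeR, adjusted p = 0.00448). The adjusted p of Myl9 stayed between 0.000305 and 0.0213 over the 14 alternatives.

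Srf rose from 34.9 to 46.3 CPM in mESCs to 59.7, 72.5 and 78.0 CPM (lowest, median and highest) in EBs at 48 hr, and all EB libraries were above all mESC libraries. The log2 fold change was 0.84 ± 0.10 (edgeR, adjusted p = 5.15e-06), below the fold threshold for a DEG. Cald1 fell from 62.4 to 88.2 CPM in mESCs to 27.9, 37.3 and 47.1 CPM, again without overlap (log2 fold change -0.92 ± 0.23, edgeR adjusted p = 0.0048). Acta2 ran from 1.38 CPM in clone E2 to 8.58 CPM in clone H7, and Tagln from 1.74 CPM in clone E3 to 34.4 CPM in clone E14. These levels lay above every KO mESC clone for Acta2 and covered the space between KO and WT mESCs for Tagln. Their log2 fold changes of -0.06 and -1.10 (standard errors 0.80 and 1.01) did not pass the test, and their sign turned when WT and KO mESCs were fitted apart (1.13 and 0.02). For Cnn2, Tpm2, Tpm1 and Cnn1 the log2 fold changes of 0.15, 0.33, 0.37 and 1.12 (standard errors 0.31, 0.29, 0.36 and 0.66) did not pass either.

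In this comparison 1 of the 10 members was a DEG, where 9.57% of the 25318 genes tested were, and 3 had an adjusted p under 0.05, where 27.9% of all genes did. The median log2 fold change was 0.24 over the members and 0.0043 over all genes. Without mESC clones 2 of both genotypes, Cald1 became a second DEG, at a log2 fold change of -1.0. All 10 members passed the filter over the 18 libraries, with 0 to 7 counts of Actg2 in each library.

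From 48 to 96 hr, Tagln, Cnn1, Cnn2 and Tpm2 rose within clones and Myl9 fell, while Srf did not pass the test. Neither stage of this comparison holds a library on which the set was chosen. The unblocked fit, however, took its spread from all 18 libraries, mESCs included. EB libraries carry the same 6 clone codes at both times, and libraries of 1 code deviated together, by shared clone or shared genotype. The fit with the clone code as a block, added after the data were seen, is therefore given beside the unblocked one. It used the EB libraries only, so the fits differ in their libraries as well as in the block. Tagln rose in 6 of 6 clones, from 1.74, 6.15 and 34.4 CPM (lowest, median and highest) to 2.26, 25.2 and 102 CPM. The log2 fold change was 1.83 ± 1.02 (adjusted p = 0.193) without and 1.55 ± 0.43 (adjusted p = 0.0269) with the block in edgeR's test. Only the blocked fit passed, and the 6 clones differed 19.8-fold at 48 hr and 45.4-fold at 96 hr.

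Cnn1 behaved alike, with 1.05, 5.41 and 15.0 CPM at 48 hr and 2.49, 10.6 and 26.1 CPM at 96 hr, and it was higher in 5 of 6 clones. Its log2 fold change was 0.95 ± 0.65 (adjusted p = 0.296) without and 1.12 ± 0.22 (adjusted p = 0.0044) with the block in edgeR's test. Cnn2 rose in 6 of 6 clones, from 29.4, 60.5 and 99.9 CPM to 51.5, 94.4 and 177 CPM (with the block, log2 fold change 0.81 ± 0.13, edgeR adjusted p = 0.00248). Tpm2 rose in 5 of 6 clones, from 12.2, 21.1 and 37.3 CPM to 21.6, 33.9 and 48.4 CPM (0.75 ± 0.15, adjusted p = 0.00461 with the block in edgeR's test). Without the block, Cnn2 and Tpm2 had adjusted p of 0.0644 and 0.114 in edgeR's test.

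Myl9 went the other way. It was lower at 96 hr in 6 of 6 clones, at 7.32, 15.1 and 23.4 CPM, and its log2 fold change of -0.58 ± 0.15 had an adjusted p of 0.015 with the block and 0.17 without it in edgeR's test. Cald1 was higher in 5 of 6 clones, at 36.2, 58.2 and 103 CPM, with 101 CPM in clone E14 and 103 CPM in clone H9. It passed the test without the block (log2 fold change 0.84 ± 0.23, adjusted p = 0.011) but not with it (0.78 ± 0.30, adjusted p = 0.0791 in edgeR's test).

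Acta2 did not pass the test in either fit. It was higher in 2 and lower in 4 of the 6 clones, with 0.809, 1.82 and 7.16 CPM at 96 hr, and its log2 fold change was -0.54 ± 0.80 (adjusted p = 0.66) without and -0.68 ± 0.33 (adjusted p = 0.135) with the block in edgeR's test. Tpm1 was higher in 5 of 6 clones, at 89.7, 233 and 449 CPM, with an adjusted p of 0.398 without and 0.0686 with the block in edgeR's test. Srf was at 53.9, 73.6 and 77.3 CPM (log2 fold change 0.01 ± 0.10, edgeR adjusted p = 0.935), and Actg2 reached 7 counts at most.

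**Figure D3:**
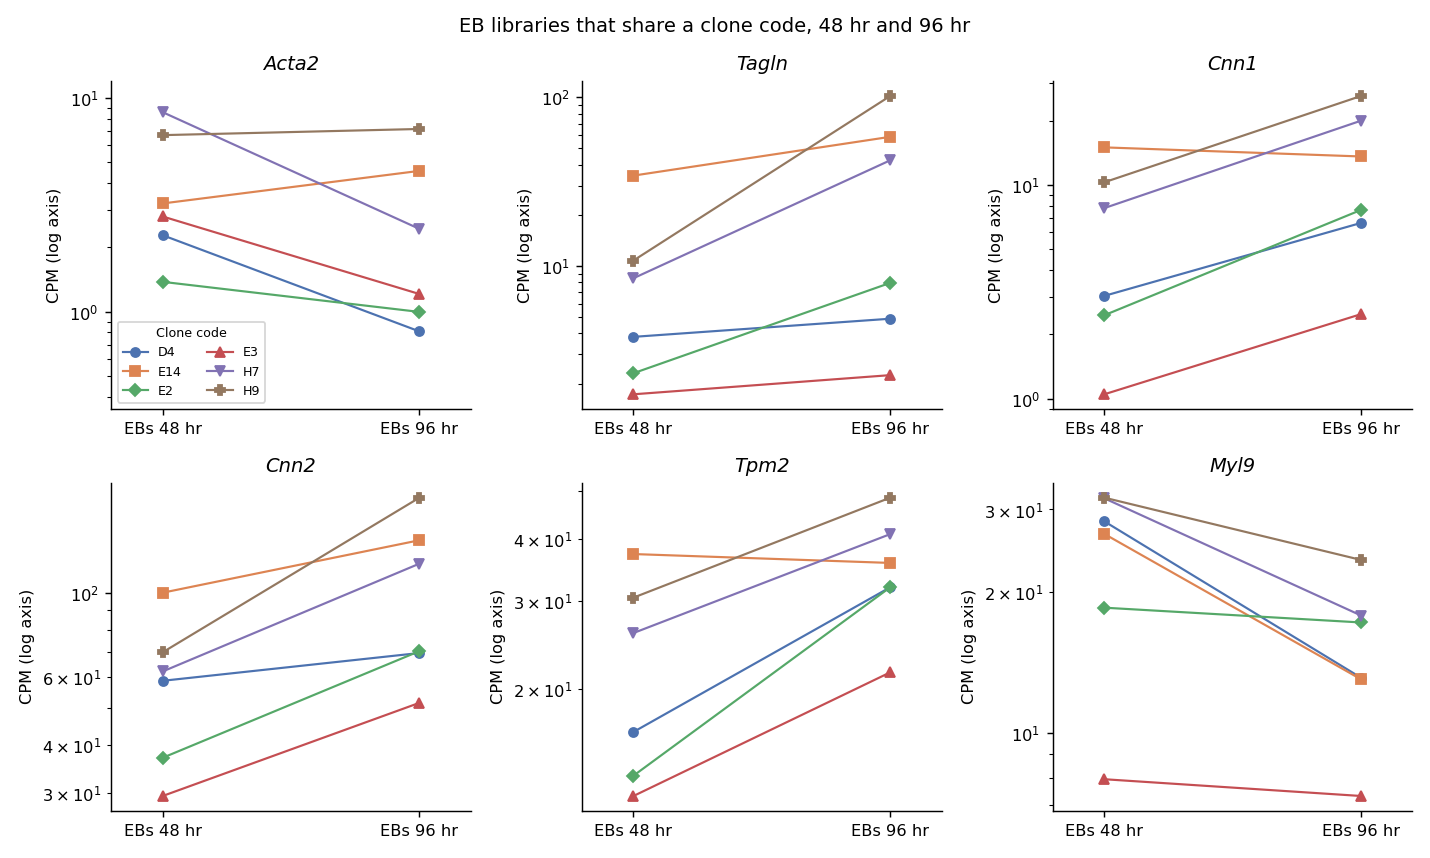
CPM of Acta2, Tagln, Cnn1, Cnn2, Tpm2 and Myl9 (vertical axis, log scale) in EBs at 48 hr and 96 hr, with 1 line for each of the 6 clone codes. Lines of Tagln and Cnn2 go up in 6 of 6 clones, lines of Myl9 go down in 6 of 6, and those of Acta2 cross.

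Without the block, 0 of the 10 members were DEGs from 48 to 96 hr by edgeR's test, where 11.9% of the 25318 genes were, 3 had an unadjusted p under 0.05 (Cald1, Cnn2 and Tpm2), DESeq2 and limma-trend called 0 as well, and 1 had an adjusted p under 0.05, where 27.7% of all genes did. With the block 2 of 10 were DEGs, where 14.8% of the 23836 genes tested were, and 5 had an adjusted p under 0.05, where 37.7% of all genes did. The median log2 fold change of the members was 0.72 without and 0.76 with the block, against -0.029 and 0.0057 over all genes. Over the 15 alternatives of this comparison, the adjusted p ran from 0.0269 to 0.481 for Tagln, from 0.0044 to 0.473 for Cnn1, from 0.00248 to 0.182 for Cnn2, from 0.00461 to 0.228 for Tpm2 and from 0.015 to 0.323 for Myl9, and no other alternative called any member but Cald1, which was a DEG without clone D4 (log2 fold change 1.02).

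**Figure D4:**
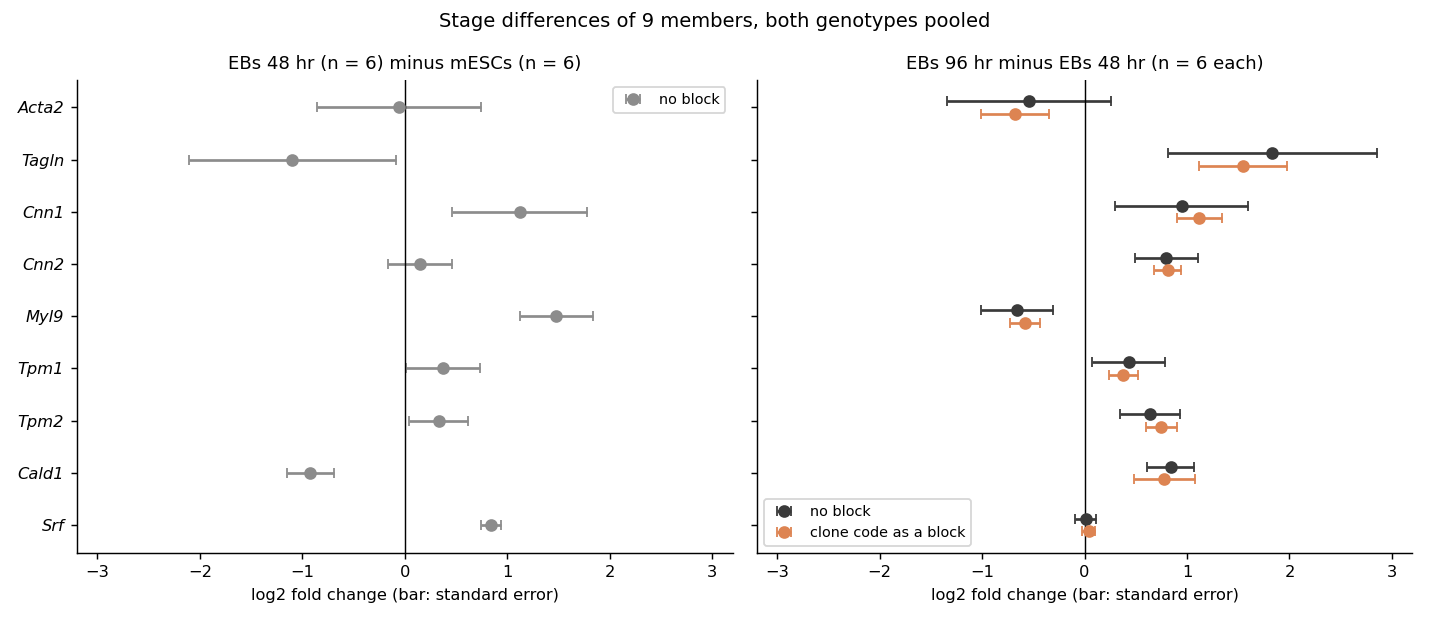
Log2 fold changes of 9 members (horizontal axis, points, with standard errors as bars) for EBs at 48 hr minus mESCs (left) and EBs at 96 hr minus EBs at 48 hr (right), with 6 libraries in each stage and, on the right, the fits without and with the clone code as a block. With the block, Tagln lies at 1.55, Cnn1 at 1.12 and Myl9 at -0.58. The standard error of Tagln is 1.02 without and 0.43 with the block. The blocked fit used the EB libraries only, whereas the unblocked fit also held the mESCs.

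Levels of most members differed widely between clones of 1 stage. The standard deviation of log2 CPM between the EB libraries of a stage was 1.92 for Tagln, 1.33 for Cnn1 and 1.11 for Acta2, at percentiles 99.4, 97.6 and 95.6 of the 13108 genes whose mean count over EBs reached 50, and whose median was 0.26. It was 0.78 for Tpm1, 0.68 for Myl9, 0.66 for Cnn2, 0.55 for Tpm2 and 0.50 for Cald1. Srf, at 0.18 and percentile 33.6, varied less than the median gene. At 96 hr, clone H9 was the highest library for 8 of 9 members (15.7% of all genes) and clone E3 the lowest for 7 of 9 (29.9%).

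Summed levels of several marker lists differed between the EB libraries as well. In clones D4, E14, E2, E3, H7 and H9 at 96 hr, in that order, the sum of 6 early mesoderm markers was 26.4, 1240, 26.3, 15.2, 635 and 1010 CPM. Tagln was at 4.88, 58.4, 7.96, 2.26, 42.4 and 102 CPM in the same libraries. At 48 hr, Tagln was highest in clone E14, whose mesoderm sum of 72.7 CPM was also the highest, against 8.93 to 19.4 CPM in the other clones. Other lists also differed between clones at 96 hr. In the same order, neuroectoderm markers summed to 56.4, 115, 62.0, 61.4, 182 and 217 CPM and fibroblast markers to 23.6, 110, 27.4, 16.9, 29.0 and 48.5 CPM. Pluripotent markers summed to 1680, 643, 1480, 1590, 1310 and 1070 CPM. Endoderm markers ran from 158 to 756 CPM, cardiac and skeletal muscle markers from 14.2 to 39.4 CPM and smooth muscle genes from 62.0 to 75.9 CPM. The part of any list in the members' levels was not tested. The clones differ in genotype as well, in a way not given for each code, so genotype and clone cannot be told apart here.

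Of the 89 genes in the pathway lists, which were tested without the block, 17 were higher DEGs at 96 than at 48 hr, where 7.1% of all genes were, and 0 were lower DEGs by edgeR, where 4.76% were. At an adjusted p under 0.05, 31 were higher and 9 lower, where 27.7% of all genes passed in either direction. Among 21 other Srf targets, 6 were higher DEGs, led by the immediate early genes Fos (log2 fold change 2.20 ± 0.28) and Egr2 (2.16 ± 0.57), the LIM protein gene Fhl2 (2.15 ± 0.49) and Junb (1.90 ± 0.24), with adjusted p of 4.54e-05, 0.01, 0.0041 and 4.78e-05 in edgeR's test. Levels of Egr2 and Fhl2 were low, with medians of 0.406 and 0.457 CPM at 48 hr and 1.36 and 1.11 CPM at 96 hr. Fos and Junb had been lower in EBs at 48 hr than in mESCs (log2 fold changes -1.91 and -2.12, adjusted p = 4.35e-05 and 4e-06 from edgeR's test), as was Fosb (-2.32, edgeR adjusted p = 0.000202). Zyx, which encodes the focal adhesion protein zyxin, had instead been higher at 48 hr (1.77, edgeR adjusted p = 0.0164).

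TGF-β signalling, a known inducer of Acta2 and Tagln, had 7 of its 12 genes as higher DEGs from 48 to 96 hr, where 7.1% of all genes were. Its part in the members' levels was not tested. The 7 genes were led by the ligand gene Tgfb2 (log2 fold change 4.11 ± 1.08, adjusted p = 0.00982), the receptor genes Tgfbr3 (2.62 ± 0.62, adjusted p = 0.0051) and Tgfbr2 (2.48 ± 0.54, adjusted p = 0.00293) and the ligand gene Tgfb3 (2.00 ± 0.45, adjusted p = 0.00339), all from edgeR's test. Tgfb2 ranged from 0.236 to 44.2 CPM at 96 hr, with a median of 1.15 CPM. Tgfb3 stayed at or below 0.41 CPM at 48 hr and 1.32 CPM at 96 hr, and the median of Tgfbr2 was 0.473 and 2.54 CPM. Of the paralogs, Actc1 rose from 0.643 to 2.81 CPM in the median (log2 fold change 2.56 ± 0.91, edgeR adjusted p = 0.0437) and Tpm4 from 117 to 257 CPM (1.17 ± 0.18, edgeR adjusted p = 0.000239). Upstream of Srf, Elk3 (1.36, adjusted p = 0.0442) and the GTPase gene Rhob (1.19, adjusted p = 6.79e-05) were higher DEGs in edgeR's test. The median of Elk3 went from 2.29 to 3.52 CPM, and its highest level at 96 hr was 16.4 CPM. The median log2 fold change was 1.10 for the TGF-β genes, 0.63 for the other Srf targets and 0.17 for the actomyosin genes, of which 0 were DEGs by edgeR or DESeq2 and 1 by limma-trend, 11 had an unadjusted p under 0.05, and 5 were higher and 5 lower at an adjusted p under 0.05.

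At 48 hr, 3 of the 89 genes were higher and 6 were lower DEGs than in mESCs, a share near the 9.57% of all genes. They included Elk3 (log2 fold change -1.70, adjusted p = 0.0135), Lmod1, which encodes leiomodin (-1.09, adjusted p = 0.0119), and Ankrd1, a YAP target (-2.79, adjusted p = 0.0196) among the lower and Synpo2, an actin-bundling protein gene (1.79, adjusted p = 0.000443), among the higher ones in edgeR's test. Ankrd1 had at most 0.103 CPM in EBs at 48 hr. Among the TGF-β genes 0 were DEGs by edgeR, DESeq2 or limma-trend at that time, and 1 had an unadjusted p under 0.05.

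Against mESCs, a comparison that shares its libraries with the other 2, EBs at 96 hr had 1 member as a DEG, where 20.8% of all genes were, and 4 members with an adjusted p under 0.05, where 43.0% of all genes were. Cnn1 was higher, with a log2 fold change of 2.07 ± 0.68 (edgeR, adjusted p = 0.0193), but this call was lost without clone H9 (1.73, adjusted p = 0.0576) and without mESC clones 1 (1.87, adjusted p = 0.078) or 2 (1.96, adjusted p = 0.0636) of both genotypes. The number of members called ran from 0 to 4 with 1 EB clone, or both mESC clones of 1 number, left out. Cnn2, Myl9 and Tpm2 passed the fold threshold without mESC clones 3, and Cnn2 and Tpm2 without EB clone E3. Cnn2 also passed it without clone D4 or E2, and Tpm2 without mESC clones 2. Tpm2 (log2 fold change 0.97 ± 0.29, adjusted p = 0.0129), Cnn2 (0.95 ± 0.31, adjusted p = 0.0206) and Srf (0.86 ± 0.10, adjusted p = 2.22e-06) were higher in edgeR's test but under the fold threshold. The members' median log2 fold change was 0.81, against -0.0075 over all genes. Among the listed genes, 19 of 89 were higher and 2 lower DEGs, near the 20.8% of all genes. They included Myocd, the cofactor of Srf in smooth muscle (2.51, edgeR adjusted p = 0.0102). The median of Myocd was 0.142 CPM at 48 hr and 0.125 CPM at 96 hr, and it stayed at or below 1.34 CPM. Higher DEGs in edgeR's test were also the TEAD factor genes Tead3 (1.46, adjusted p = 3.08e-05) and Tead2 (1.44, adjusted p = 4.79e-07).

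Per kilobase of exon, Tpm1 and Cnn2 were the highest members in WT mESCs (medians of 24.8 and 24.2 CPM per kb), followed by Tagln (14.5) and Srf (14.3), Myl9 (8.66), Tpm2 (7.79), Cald1 (5.74), Acta2 (4.06), Cnn1 (1.46) and Actg2 (0.0424). Neighbours in this order overlapped between clones, except that Srf stayed above Myl9, Cald1 above Acta2 (5.58 to 7.33 and 1.93 to 5.31 CPM per kb) and Cnn1 above Actg2. In KO mESCs Tpm1 and Cnn2 led as well (19.2 and 18.0 CPM per kb), while Tagln stood seventh, at 1.48 CPM per kb, and Acta2 ninth, at 0.16 CPM per kb. In EBs at 96 hr the medians were 38.4 CPM per kb for Cnn2, 35.9 for Tpm1, 25.4 for Srf, 13 for Myl9 and 12.7 for Tagln, and 0.831 CPM per kb for Acta2.

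The genes with the pattern most like that of Acta2 were no members. Over the 12 EB libraries, with the mean of each stage removed, Gatd1 (Pearson's r = 0.97), Cirbp and Trim45 (both 0.96), Ginm1 (0.94) and AI597479 (0.93) came first among 13107 genes. Cirbp encodes an RNA-binding protein induced by cold. Of the members Tagln came highest, at r = 0.76 and rank 700, followed by Cnn2 (0.73, rank 1036). Between Tagln, Cnn1, Cnn2, Tpm1 and Tpm2, r ran from 0.84 to 0.97 over the same libraries. Pairs with Cald1 ran from -0.03 to 0.54, and all pairs of members other than Actg2 had a median of 0.80. The 12 libraries are 6 clones taken at 2 times and share genotype and clonal differences, so these values describe the libraries only.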

How the data were processed

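RNA-seq counts per gene were analysed for 18 libraries (3 WT and 3 KO mESC clones, and 6 EB libraries at each of 48 and 96 hr). Per the labels and the study's methods, the authors trimmed paired-end reads with Trim Galore 0.6.6, aligned them with STAR 2.7.8 to GRCm38 (Ensembl annotation), kept uniquely mapped reads and deposited raw counts over exons from featureCounts (Subread 2.0.1). Reads shared by near-identical genes were therefore not counted. A deposited normalized table was not used. Counts were not altered here.

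Members, gene lists and cell type markers were chosen with earlier results of these data known. Tests used edgeR 4.0.16 (R 4.3.3), with TMM scaling, robust quasi-likelihood fits and at least 10 counts over the libraries fitted. DEGs had an adjusted p under 0.05 (Benjamini-Hochberg over all genes) and an absolute log2 fold change over 1, and DESeq2 1.42.0 and limma 3.58.1 served as alternatives. Counts of members or listed genes at an unadjusted p under 0.05 lack the share of all genes in that fit. Nothing is read from them. CPM were scaled by TMM over all 18 libraries. Log2 CPM used a prior count of 2. Genes named beside the 10 members were up to 4 DEGs per list and comparison with the largest absolute log2 fold change, Nfkbia, and the 5 genes most like Acta2; the other relatives in mESCs were named after their values were seen. Gene positions and exon lengths came from GENCODE vM21 (GRCm38).

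On simulated counts with 4-fold changes in 200 genes, the mESC fit recovered 199 (5 false calls, 21414 genes), and the 96 against 48 hr fit recovered 200 (5 false calls, 24918 genes). Such recovery checks the fits and does not give the power of the real comparisons. Among the real mESC libraries, KO clone 2 stood apart from the other KO clones (chi-square per degree of freedom 48.4 and 54.9). Leaving out WT clone 2 took the DEGs of that comparison from 372 to 0, as given above. Deviations from the stage mean correlated between EB libraries of 1 clone code by 0.40 to 0.73 over 13177 genes in all 6 codes. That mean covers both genotypes, and different codes were not compared. A shared genotype and a shared clone therefore cannot be told apart in these correlations. Clones were separate lines of each genotype, so p-values reflect spread between clones. In the main stage fits each group mixed both genotypes, so that spread includes the genotype difference. These fits also treated the 48 and 96 hr libraries of 1 clone code as independent. No 2 libraries of a group agreed within sampling noise (lowest chi-square per degree of freedom 5.04 over 36 pairs).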

Additional observations from a re-analysis of the deposited data

Results flagged for a closer look

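Among the 18 sets of 6 EB libraries tested (9 members at 2 times), 2 held a library far from the other 5. Chance alone flags about 1 set in 20 where a set is 1 normally distributed population. These sets mix WT and KO clones and were read in CPM without logs, so that rate may not hold. Tagln was at 34.4 CPM in clone E14 at 48 hr, against 10.8 CPM in the next library, a gap of 0.723 of the whole range. At 96 hr, clone E14 was at 58.4 CPM and no longer the highest, since clone H9 was at 102 CPM. Srf was at 53.9 CPM in clone E3 at 96 hr, against 68.7 CPM in the next library, a gap of 0.631 of the range. Clone E3 was also the lowest library for Srf at 48 hr, at 59.7 CPM.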

How the results depend on the processing

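Fold changes of the members mostly kept their direction and their side of the thresholds (497 of 539 alternative values), with the cause of the exceptions not tested. Most of these values belonged to fold changes that were not DEGs in the main fit, where staying uncalled counted as kept. The calls of Tagln and Cnn1 in mESCs were kept less often, as given above. For KO minus WT mESCs, DESeq2's Wald test called 572 genes against 372, and 1046 genes and 8 listed genes passed without the fold threshold. With 1 clone left out the counts ran from 0 to 872 genes, 0 to 3 members and 0 to 4 listed genes. The replicate block called 261 genes and the same number of members, but same-numbered WT and KO clones did not deviate together (r of -0.12, -0.01 and -0.03), so no pairing is assumed. Without the fold threshold, 7053 genes, 3 members and 35 listed genes passed for EBs at 48 hr minus mESCs, 7019, 1 and 40 for EBs at 96 minus 48 hr, and 10894, 4 and 48 for EBs at 96 hr minus mESCs. The clone code as a block, fitted to the EB libraries only, called 2 members from 48 to 96 hr instead of 0. For EBs at 96 hr minus mESCs, limma-trend called 2 members, as did the fit with 4 groups. In the stage fits, 1 EB clone, or the WT and KO mESC clones of 1 number together, were left out in turn. This gave 1748 to 2836 genes, 1 to 2 members and 8 to 12 listed genes at 48 hr against mESCs, 1936 to 3484, 0 to 1 and 12 to 22 from 48 to 96 hr, and 4397 to 6165, 0 to 4 and 18 to 24 at 96 hr against mESCs.

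Signs turned only in fold changes that did not pass the test. At 48 hr against mESCs, Acta2 was at 0.88 with limma-trend and 1.13 with 4 groups, and ran from -0.41 to 0.24 with clones left out (0.24 without mESC clones 3, and 0.06, 0.0049, 0.12 and 0.03 without EB clones D4, E14, E2 and E3). Tagln was at 0.0241 with 4 groups, and Cnn2 at -0.0091 without mESC clones 2 and -0.0611 without EB clone E14 (range with clones left out -0.0611 to 0.288). At 96 hr against mESCs, Acta2 was at 0.17 with limma-trend and 0.59 with 4 groups, and Cald1 at 0.0421 and 0.0163 without EB clones D4 and E2 (range -0.25 to 0.0421). From 48 to 96 hr, Srf was at -0.0231 without EB clone E2 (range -0.0231 to 0.0458). For KO minus WT, Actg2 was at -0.18 without WT clone 1 (range -0.18 to 1.03), on at most 3 counts a library. Depth limits Actg2 in all stages and Acta2 in KO mESCs, where 12 to 24 counts were read.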
